A study of Rattus norvegicus with 3 samples.

Results

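The MAP kinase cascade and its feedback inhibitors were followed in rat adrenal medulla, where chromaffin cells release adrenaline and noradrenaline, after 7 days or 1 day in the cold. Members were all genes whose single annotated symbol was Dusp, Spry, Spred, Socs, Mapk, Map2k, Map3k or Map4k followed by a digit, which gave 71 of the 14217 genes measured with a single symbol, from 102 probe sets. They comprised 31 feedback genes (20 Dusp, 4 Spry, 1 Spred and 6 Socs), 33 kinase genes (10 Mapk, 5 Map2k, 13 Map3k and 5 Map4k) and 7 genes named after a kinase without coding for one. Each gene was read from the probe set with the highest mean on the 7-day array and 1-day array b. Total RNA had been measured on 1 oligonucleotide array per sample, with 1 array from rats kept in the cold for 7 days and 2 arrays, a and b, from rats kept there for 1 day. Labels gave no strain, sex or age. They did not tell separate animals from repeat arrays of 1 sample, so the spread between a and b may be technical. Cold exposure was common to all 3 arrays, and arrays of unexposed rats were not analysed here. With so few arrays, precision is low throughout.

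A MAP kinase cascade passes a signal from a Map4k or a small GTPase to a Map3k, from there to a Map2k, and from the Map2k to a MAP kinase of the ERK, JNK, p38 or ERK5 type. Its output is held down by proteins whose genes the cascade itself often induces, among them dual-specificity phosphatases (Dusp), which remove phosphate from MAP kinases, and the Sprouty (Spry) and Spred proteins, which block signalling between growth factor receptors and Raf. The Socs proteins do the same for cytokine receptors that signal through JAK kinases. In chromaffin cells, acetylcholine from the splanchnic nerve, the peptide PACAP and growth factors all engage the ERK pathway.

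Array quality set the frame for all that follows. For beta-actin, the 3′ probe set divided by the 5′ probe set, a ratio that increases when RNA is degraded or incompletely copied, gave 8.87 on the 7-day array, 6.11 on 1-day array b and 231 on 1-day array a. For GAPDH the same ratio gave a smaller gap, with 1.87 on the 7-day array, 1.79 on array b and 5.02 on array a. Among the 15521 brighter probe sets, the SD of the log2 difference was 0.36 for the 7-day array minus 1-day array b, 1.29 for the 7-day array minus 1-day array a, and 1.35 between the 1-day arrays. Values against array b and against array a are therefore given side by side. Scaling bore most on array a: centring arrays on their medians took the median difference over all kept genes from 0.18 to 1.39 relative to array a, and from -0.01 to -0.20 relative to array b. Positions relative to array a hold for the deposited scaling unless said otherwise. The tissue was checked with 8 chromaffin cell markers, all of which passed the intensity filter. Tyrosine hydroxylase (Th) read 224786 on the 7-day array, 193597 on 1-day array b and 79575 on 1-day array a. Markers of the adrenal cortex were also bright, with Star at 277066 on the 7-day array, 208111 on 1-day array b and 602316 on 1-day array a, so the samples held cortex RNA as well.

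Promoter windows of 4 feedback genes that read lower on the 7-day array than on array b and hold a motif match are shown first, a choice made after values and matches were seen. They are from RefSeq (build GRCr8), each running from 250 bases before to 50 bases after an annotated gene start, 5′ to 3′ on the gene's strand. Capitals mark matches, on either strand, to the core of the cyclic AMP response element (TGACG), the full element (TGACGTCA, which holds 2 overlapping cores), the AP-1 site (TGANTCA), the STAT element (TTCNNNGAA) and the CArG box bound by serum response factor. Dusp1 lies at chr10:17184603-17184902 on the plus strand, Dusp2 at chr3:135009386-135009685 on the plus strand and Dusp5 at chr1:262543524-262543823 on the plus strand. Spry2 has 2 windows on the minus strand, at chr15:89111877-89112176 (window 1) and chr15:89109793-89110092 (window 2).
Dusp1: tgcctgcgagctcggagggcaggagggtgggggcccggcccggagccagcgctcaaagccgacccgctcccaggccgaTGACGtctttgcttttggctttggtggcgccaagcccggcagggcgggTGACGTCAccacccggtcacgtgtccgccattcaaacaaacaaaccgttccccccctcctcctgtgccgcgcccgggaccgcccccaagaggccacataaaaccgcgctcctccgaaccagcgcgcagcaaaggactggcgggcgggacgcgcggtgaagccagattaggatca
Dusp2: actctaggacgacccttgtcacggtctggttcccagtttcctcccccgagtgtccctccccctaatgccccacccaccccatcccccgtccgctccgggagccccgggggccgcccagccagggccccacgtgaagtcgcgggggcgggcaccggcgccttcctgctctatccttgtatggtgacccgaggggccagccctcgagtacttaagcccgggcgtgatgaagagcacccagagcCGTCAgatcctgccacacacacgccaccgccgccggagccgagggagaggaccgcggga
Dusp5: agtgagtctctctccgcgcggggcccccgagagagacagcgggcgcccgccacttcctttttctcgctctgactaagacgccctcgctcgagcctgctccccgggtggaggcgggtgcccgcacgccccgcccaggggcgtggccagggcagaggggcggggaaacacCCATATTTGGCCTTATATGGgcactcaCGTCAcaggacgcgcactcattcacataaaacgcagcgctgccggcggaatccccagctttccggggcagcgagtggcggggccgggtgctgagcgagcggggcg
Spry2 window 1: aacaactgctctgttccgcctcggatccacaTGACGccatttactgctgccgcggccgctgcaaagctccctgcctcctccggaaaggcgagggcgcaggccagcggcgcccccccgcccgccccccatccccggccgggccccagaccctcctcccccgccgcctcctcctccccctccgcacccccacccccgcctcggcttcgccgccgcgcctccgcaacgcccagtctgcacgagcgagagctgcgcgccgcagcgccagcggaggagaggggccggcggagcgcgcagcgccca
Spry2 window 2: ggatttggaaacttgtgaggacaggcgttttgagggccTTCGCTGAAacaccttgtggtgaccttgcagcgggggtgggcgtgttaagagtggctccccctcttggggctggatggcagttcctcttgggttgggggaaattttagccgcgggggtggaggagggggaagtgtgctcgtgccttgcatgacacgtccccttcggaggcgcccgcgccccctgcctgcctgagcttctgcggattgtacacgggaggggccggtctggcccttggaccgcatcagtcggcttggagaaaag

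The full cyclic AMP element of Dusp1 began 124 bases before the gene start and a further core 172 bases before it. In Dusp5, a pair of adjoining CArG boxes began 82 and 72 bases before the start, and a cyclic AMP core 55 bases before it. Dusp2 held a core 9 bases before its start, and Spry2 held a core in window 1 and a STAT element in window 2. Of the 71 members, 61 matched a RefSeq promoter by symbol. Over the 29 windows of 26 matched feedback genes, 9 held the cyclic AMP core and 2 the full element (Dusp1 and Dusp11), against 6 and 0 of the 30 windows of kinase genes. Among all 33469 windows the shares were 21.2% and 1.83%. The AP-1 site was present in 2 feedback windows and 2 kinase windows (7.33% of all windows), the STAT element in 3 and 0 (8.87%), and the CArG box in 1 and 1 (1.64%). These matches describe letters and say nothing of binding. Among kept genes, no match was present in the windows of Dusp7, Dusp8, Dusp10, Dusp18, Dusp22, Spry1 and Socs3. These also read lower on the 7-day array than on array b (values below) and are not shown. Dusp3, Dusp11, Dusp14 and Spry4, which read higher, each held a match and are not shown either. Dusp6, Dusp15, Socs6 and Spred3, which read higher too, held none. Matches were thus present and absent among lower and higher genes alike.

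The comparison asked whether feedback genes and kinases differed between the longer and the shorter stay in the cold. A probe set was kept where its mean log2(intensity + 16) on the 7-day array and 1-day array b reached the median of all probe sets, an intensity of 614. This kept 21 of 31 feedback genes, 24 of 33 kinase genes and 3 of the 7 others. Limma, a linear model across all probe sets, was fitted to the 3 arrays with the 1-day pair as the only source of spread. It called 0 of 15521 probe sets at an adjusted p under 0.05 (0%), with 74 at an unadjusted p under 0.05. Of the 48 members kept, 0 had an unadjusted p under 0.05. The lowest was 0.0946 in limma, for Map3k6, with an adjusted p of 1.00. All further differences are therefore descriptions of these arrays, without a test. They are given as log2 differences of intensity + 16.

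Of the 4 genes for inducible nuclear MAP kinase phosphatases, 3 passed the filter, and these 3 were lower on the 7-day array than on 1-day array b, by less than 1.5-fold each. Of all genes kept, 51.9% were lower. Dusp1, whose product dephosphorylates MAP kinases in the nucleus, read 25843 on the 7-day array, against 34876 on 1-day array b and 8352 on 1-day array a. The 7-day value thus lay between the 1-day values, at -0.43 relative to array b and 1.63 relative to array a. Limma gave 0.60 ± 0.97 (SE) against the mean of both 1-day arrays. A second, dimmer Dusp1 probe set, at 1001 on the 7-day array, 1391 on array b and 235 on array a, gave -0.47 and 2.02.

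Dusp2, another nuclear phosphatase gene, read 865 on the 7-day array against 1209 on array b and 3796 on array a, and so was lower than both 1-day arrays (-0.48 and -2.11). For the nuclear ERK phosphatase gene Dusp5 the values were 1511 on the 7-day array, 1802 on array b and 1400 on array a. It stood at -0.25 relative to array b and at 0.11 relative to array a. All 3 of these genes that passed the filter were thus lower than array b, but only Dusp2 was lower than both 1-day arrays, as it was with quantile normalisation and with median centring. Dusp4, the fourth of this group, was too dim to keep, at 312 on the 7-day array, 22 on array b and 223 on array a.

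The cytoplasmic phosphatase genes specific for ERK parted ways. Dusp6 read 6981 on the 7-day array, 5654 on array b and 2251 on array a, higher than both (0.30 and 1.63). Its other kept probe sets disagreed, one at 0.31 and one at -0.31 relative to array b, and both below array a (-0.76 and -1.98). Dusp7 read 8962 on the 7-day array, against 12647 on array b and 4401 on array a, which put it at -0.50 relative to array b and 1.02 relative to array a. Dusp9 did not pass the filter. Dusp8 and Dusp10, phosphatases of JNK and p38, were nearly level between the 7-day array and array b. Dusp8 read 1506 at 7 days, 1516 on array b and 1537 on array a, the closest agreement of all 3 arrays among the feedback genes, and Dusp10 read 1229 at 7 days, 1232 on array b and 853 on array a.

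Other Dusp genes, whose products are small phosphatases with mixed or non-MAP-kinase substrates, had 6 of 11 members kept, 4 higher and 2 lower than array b, with a median of 0.12 that turned to -0.06 with median centring. Dusp14 was the highest of the kept feedback genes relative to array b, at 13718 on the 7-day array, 10027 on array b and 5342 on array a (0.45 and 1.36). Dusp11, which encodes an RNA phosphatase, read 7139 at 7 days, 6229 on array b and 5425 on array a. Dusp15 read 1542 on the 7-day array, 1251 on array b and 1632 on array a. Both Dusp11 and Dusp14 were above both 1-day arrays, and Dusp15 lay between them. Dusp3, whose product acts on ERK and JNK, read 5775 at 7 days, 5612 on array b and 3654 on array a, a difference from array b (0.04) that turned to -0.14 when arrays were centred on their medians. Dusp22 read 3897 at 7 days, 4106 on array b and 3530 on array a. The lowest of the 6 kept was Dusp18, at 754 on the 7-day array, 948 on array b and 279 on array a (-0.33 and 1.38). Its second kept probe set, at 742 at 7 days, 803 on array b and 2516 on array a, gave -0.11 and -1.74. Dusp18 probe sets below the filter were also lower than array a (-0.64 and -3.92).

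Among kept members, the widest gap between the 7-day array and array b was that of a Sprouty gene. Spry2, an inhibitor of receptor tyrosine kinase signalling and itself induced by ERK, read 2612 on the 7-day array, against 4889 on array b and 1838 on array a. Its difference from array b was -0.90, a 1.87-fold lower value, and its difference from array a was 0.50. Limma gave -0.20 ± 0.95 (SE). Spry2 kept a difference of -1.08 to -0.74 from array b under every scaling tried. Spry1 read 939 at 7 days, 1316 on array b and 720 on array a (-0.48 and 0.38), so it too lay between the 1-day arrays. Spry4 went the other way, at 2051 on the 7-day array, 1695 on array b and 2655 on array a (0.27 and -0.37). Spred3, which restrains Raf activation, read 1506 at 7 days, 1157 on array b and 3904 on array a (0.38 and -1.36). Spry3, at 347 on the 7-day array, 194 on array b and 221 on array a, did not pass the filter.

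Socs genes that passed lay between -0.16 and 0.06 relative to array b on the 7-day array when read from the chosen probe sets. Socs3, which blocks signalling by interleukin 6 type receptors, read 752 at 7 days, 828 on array b and 1026 on array a (-0.14 and -0.44), lower than both 1-day arrays. Socs5 read 5802 at 7 days, 6499 on array b and 4186 on array a. Socs7 read 3250 at 7 days, 3455 on array b and 2652 on array a. Both lay between the 1-day arrays, at -0.16 and -0.09 relative to array b. A second kept probe set put each below both 1-day arrays, Socs5 at -0.33 and -0.20 and Socs7 at -0.15 and -0.12. The mean over all 3 Socs7 probe sets gave -0.80, with a probe set below the filter at -2.16. Socs6 read 2922 at 7 days, 2799 on array b and 444 on array a, and its difference from array b (0.06) turned to -0.12 with median centring. Socs1 and Socs2 were below the filter, with intensities of 175 to 442 over the 3 arrays.

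**Figure D1:**
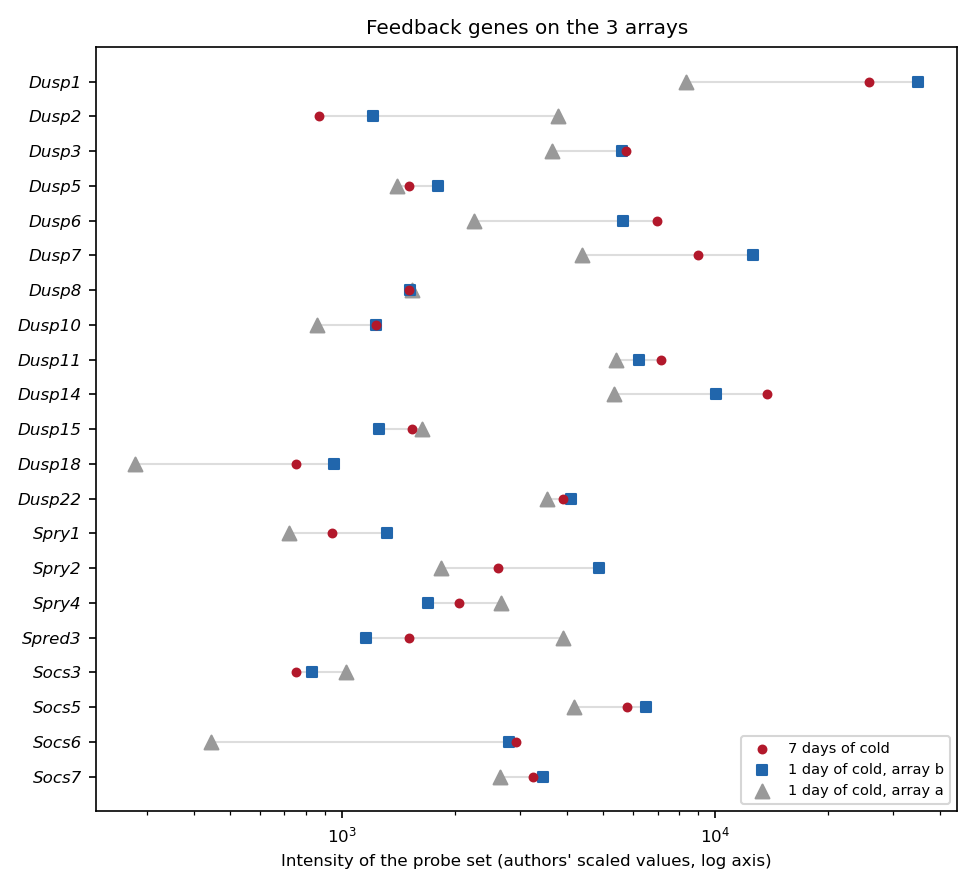
Intensity of the probe set chosen for each of the 21 feedback genes that passed the filter (log axis), with 1 point per array: red circles for the 7-day array, blue squares for 1-day array b and grey triangles for 1-day array a. Grey lines join a gene's values; Dusp1 (25843 at 7 days, 34876 on array b, 8352 on array a) and Spry2 (2612 at 7 days, 4889 on array b, 1838 on array a) are among the genes whose 7-day value lies between the 1-day values.

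Among the kept kinases, the terminal MAP kinases held the largest differences from array b in both directions, but in dim genes. Mapk11 on the 7-day array (504) and Mapk12 on array b (588) read below the filter intensity of 614. The brightest of this family, Mapk14 and Mapk6, differed from array b by 0.17 and 0.01, while Mapk13, brighter than Mapk11 and Mapk12, differed by -0.44. The part of low intensity in these differences was not tested. Mapk11, which encodes p38 beta, read 504 on the 7-day array, against 888 on array b and 3050 on array a, lower than both (-0.80 and -2.56), also with quantile normalisation and with median centring. Mapk13, p38 delta, read 1686 at 7 days, 2300 on array b and 1761 on array a (-0.44 and -0.06). Mapk12, p38 gamma, was opposed to them relative to array b, at 858 on the 7-day array, 588 on array b and 1193 on array a (0.53 and -0.47).

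Mapk14, the widely expressed p38 alpha, read 12658 on the 7-day array, 11235 on array b and 10018 on array a. Its difference of 0.17 from array b became -0.01 with median centring. The JNK gene Mapk9 was higher than both 1-day arrays, at 1054 at 7 days, 788 on array b and 503 on array a (0.41 and 1.04). Its other probe set, below the filter, read 436 at 7 days, 400 on array b and 1558 on array a (0.12 and -1.80). Mapk8, the other ubiquitous JNK gene, read 2165 at 7 days, 2059 on array b and 2519 on array a, with 0.07 relative to array b turning to -0.11 with median centring. Mapk7, which encodes ERK5, was the lowest kinase after Mapk11, at 663 at 7 days, 948 on array b and 670 on array a (-0.51 and -0.02). The atypical kinase gene Mapk6 read 10895 at 7 days, 10840 on array b and 7750 on array a, a difference of 0.01 from array b that became -0.17 with median centring. Mapk4 and Mapk15 did not pass the filter, with at most 154 on the 7-day array and array b.

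The Map2k genes, which encode the kinases that phosphorylate MAP kinases, lay within 0.20 of array b on the 7-day array, with Map2k1 and Map2k2 far from array a. Map2k1, an activator of ERK, read 7973 at 7 days, 8130 on array b and 2218 on array a (-0.03 and 1.84), and the first of these differences turned to 0.03 with quantile normalisation. Map2k2, its partner, read 15495 at 7 days, 13502 on array b and 44483 on array a (0.20 and -1.52). These ERK activators thus stood on opposite sides of array a and close to array b. Map2k3, an activator of p38, read 34530 at 7 days, 34899 on array b and 49752 on array a (-0.02 and -0.53). Map2k5, which activates ERK5, read 4050 at 7 days, 3676 on array b and 4086 on array a, at 0.14 relative to array b and -0.04 there with median centring. Map2k6 was below the filter, at 234 at 7 days, 135 on array b and 337 on array a.

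Among Map3k genes, Map3k6 was the highest relative to array b and the member farthest above array a, at 3599 on the 7-day array, 2676 on array b and 337 on array a (0.43 and 3.36). Limma gave 1.89 ± 1.13 (SE), a value that rested on array a. Map3k11, a mixed-lineage kinase gene upstream of JNK, was the lowest, at 3573 at 7 days, 4246 on array b and 5148 on array a (-0.25 and -0.52). The other kept genes lay within -0.10 and 0.12 of array b. In rising order these were Map3k7 (-0.10), of inflammatory signalling, Map3k4 (-0.09), Map3k20 (0.05), Map3k12 (0.09), a neuronal stress kinase gene, Map3k3 (0.09) and Map3k1 (0.12). With median centring the 4 last named turned to between -0.13 and -0.06, and Map3k20 also turned, to -0.04, when its probe sets were averaged. Relative to array a these genes stood at -0.02 to 0.56, closer to it than Map3k6 and, Map3k1 apart, closer than Map3k11.

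Map4k genes split evenly. Map4k2 read 1272 at 7 days, 953 on array b and 2727 on array a (0.41 and -1.09). Map4k3 read 5756 at 7 days, 4972 on array b and 1644 on array a (0.21 and 1.80), and was above both. Map4k4 was below both, at 7690 at 7 days, 9305 on array b and 12831 on array a (-0.27 and -0.74), and its 2 further kept probe sets gave -0.36 and -0.17 relative to array b. Map4k5 read 3300 at 7 days, 4304 on array b and 1765 on array a (-0.38 and 0.90). The mean of its 2 probe sets gave -1.65 relative to array b, with the other probe set, below the filter, at -2.92. Of the genes named after a kinase, the JNK scaffold gene Mapk8ip1 read 10797 at 7 days, 11534 on array b and 13581 on array a (-0.10 and -0.33). Mapk1ip1 stood at 0.22 relative to array b, and Mapk1ip1l at -0.04, or 0.01 with quantile normalisation or with an intensity trend removed.

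**Figure D2:**
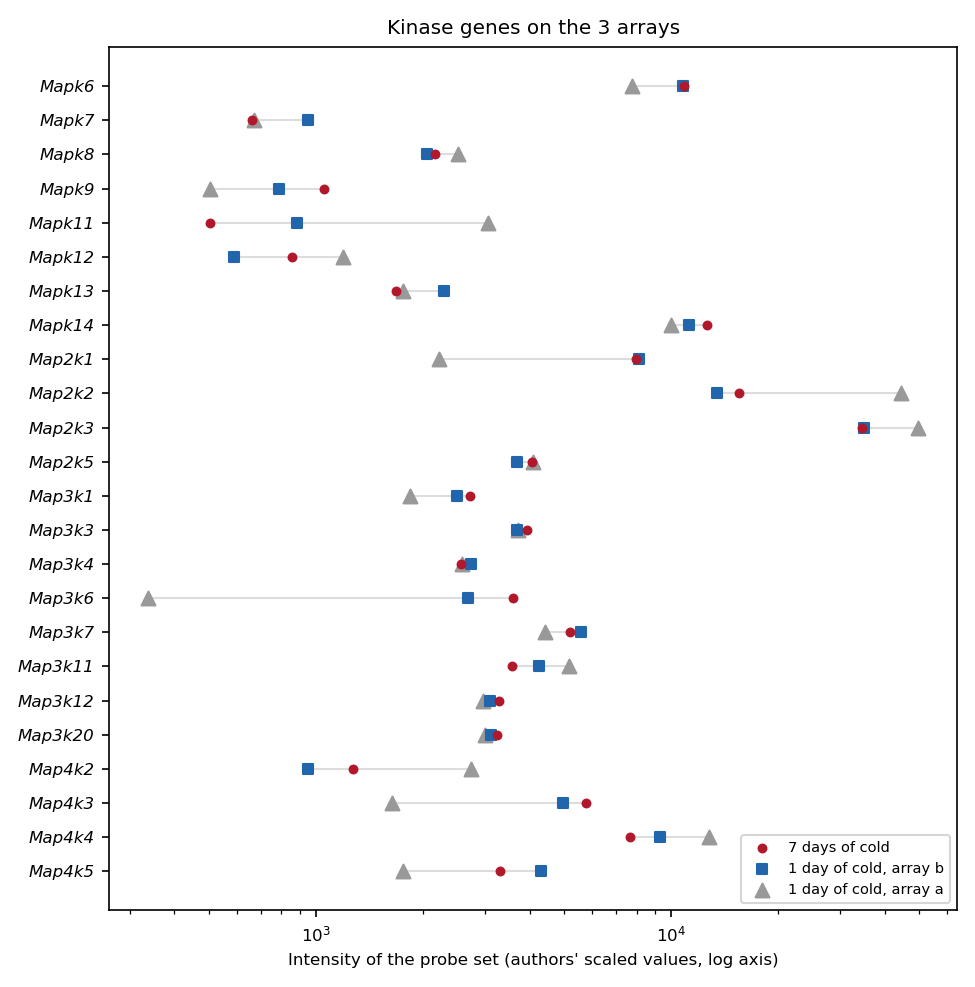
Intensity of the probe set chosen for each of the 24 kinase genes that passed the filter (log axis), with red circles for the 7-day array, blue squares for 1-day array b and grey triangles for 1-day array a. The 7-day value is close to array b for most genes, while array a is far from both for Map3k6 (3599 at 7 days, 2676 on array b, 337 on array a) and Map2k2 (15495 at 7 days, 13502 on array b, 44483 on array a).

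Set side by side as groups, feedback genes had a median of -0.08 on the 7-day array relative to 1-day array b, with 13 lower and 8 higher. Kinase genes had a median of 0.06, with 10 lower and 14 higher, and this turned to -0.12, with 18 lower, when arrays were centred on their medians. The same centring took the feedback median to -0.26, with 15 lower, and, as given above, the median of all 9398 genes kept to -0.20. The feedback median also lay below the kinase median with quantile normalisation and with the loess trend removed. Median centring moves every gene alike, so it could not change the distance between these medians. The 2 other pseudocounts could change it little in genes kept for their intensity. This distance was not tested. The median size of the difference was 0.27 for feedback genes, 0.19 for kinase genes and 0.18 for all genes.

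At least 1.5-fold lower values on the 7-day array than on array b were seen for 1 of 21 feedback genes (Spry2) and 1 of 24 kinase genes (Mapk11), against 3.39% of all genes, and at least 1.5-fold higher values for 0 and 0, against 3.39% of all genes. With so few members these counts are near the shares of all genes. A fold of 1.25, chosen after the values were seen, gave 6 of 21 feedback genes lower, which were Spry2, Dusp7, Spry1, Dusp2, Dusp1 and Dusp18, and 2 higher, Dusp14 and Spred3. Dusp18 passed this fold narrowly, at 1.253-fold, and fell short with a pseudocount of 64 (-0.31) or in its second kept probe set (-0.11). For kinase genes the same fold gave 4 of 24 lower and 4 higher. Over all genes 13.7% were lower by this fold and 12.3% higher. The feedback share of 28.6% lower was thus above that of all genes, and the kinase share of 16.7% near it. Among only the genes above the 75th percentile of intensity, 3 of 11 feedback genes and 1 of 16 kinase genes were lower by this fold, against 10.6% of all genes. By the same fold, 2 of the 3 kept nuclear phosphatase genes and 2 of the 3 kept Spry genes were lower, and 0 of the 4 Socs genes.

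Relative to 1-day array a the order of the groups was turned. Feedback genes had a median of 0.40 on the 7-day array, with 15 of 21 higher, kinase genes 0.04, with 12 of 24 higher, and all genes 0.18. Both comparisons share the 7-day array, so they are not independent. The 1-day arrays, set against each other, differed for feedback genes by a median of 0.52 (array b minus array a), for kinase genes by 0.07 and for all genes by 0.21. Against the mean of both 1-day arrays the medians were 0.11 for feedback genes, 0.06 for kinase genes and 0.09 for all genes. The feedback median rested on the 1-day array used, at -0.08 without array a and 0.40 without array b. With each gene read as the mean of all its probe sets, the medians against the mean of both 1-day arrays turned to -0.05 for feedback genes and -0.06 for kinase genes. Read from the chosen probe sets, 3 feedback genes were below both 1-day arrays at 7 days (Dusp2, Dusp8 and Socs3) and 5 above both. For kinase genes these counts were 7 and 9. The shares of all genes were 22.9% below both and 27.4% above both. With median centring, Dusp2 and Mapk11 were the members of these 2 groups that stayed below both, against 6.69% of all genes. The 3′ to 5′ actin ratio moved with array a, as given above, and its part in these differences was not tested.

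**Figure D3:**
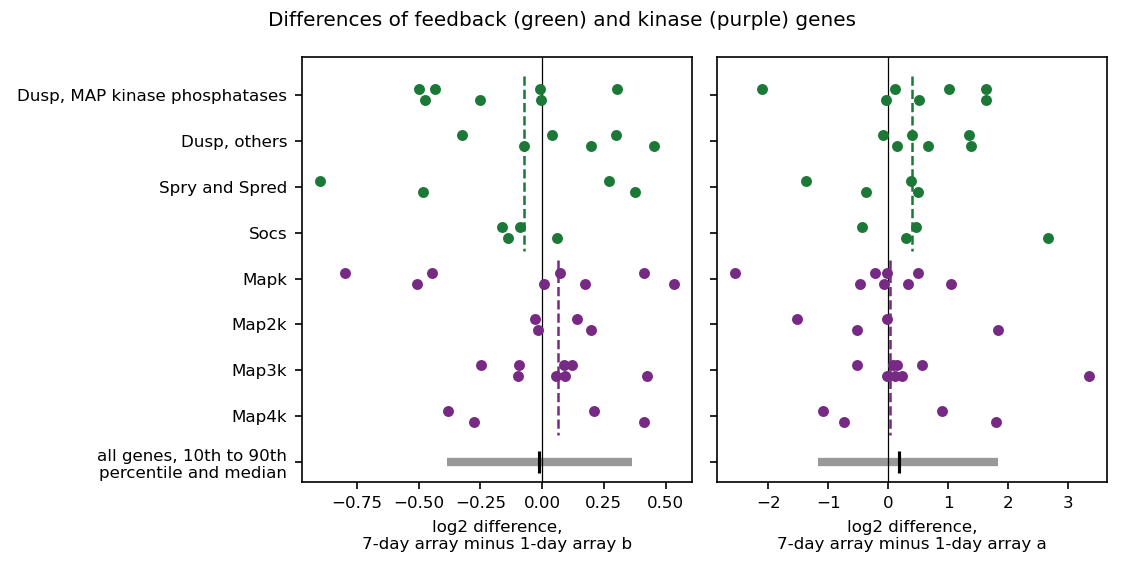
Log2 difference of each kept member by family, on the left for the 7-day array minus 1-day array b and on the right for the 7-day array minus 1-day array a (the axes differ in range). Dashed lines mark the medians of feedback genes (-0.08 and 0.40) and kinase genes (0.06 and 0.04), and the bar at the bottom spans the 10th to 90th percentile of all 9398 genes, from -0.38 to 0.37 on the left; the kinase median on the left turned to -0.12 with median centring.

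Members below the filter gave wide and opposed differences. The 10 feedback genes among them ran from -1.24 for Dusp13b to 3.10 for Dusp4 relative to array b, with 5 lower and 5 higher. The 9 kinase genes ran from -1.14 for Map3k8 to 1.84 for Map3k9, with 1 lower and 8 higher, and the 4 others from -1.73 for Mapk8ip3 to 2.79 for Mapk8ip2. None of these genes exceeded an intensity of 679.97 on the 7-day array or array b. At such levels a log2 difference depends on the pseudocount, as for Dusp4, which stood at 3.75 with a pseudocount of 1 and 2.12 with 64.

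Other genes of the pathway were taken from 4 lists. Upstream genes of Ras and Raf had 14 kept members, 8 lower and 6 higher than array b, with a median of -0.05, and 0 of them lay 1.25-fold away in either direction. The lowest were the adaptor gene Shc1 (-0.31), the Ras relative Rras (-0.26) and the exchange factor gene Sos2 (-0.17). The highest were Pebp1, which encodes an inhibitor of Raf (0.23), Sos1 (0.21) and Nras (0.20). Relative to array a, Shc1, Rras and Sos2 stood at 0.21, 0.08 and -0.60. Pebp1, Sos1 and Nras stood there at 1.08, -0.19 and -0.53, and the list had a median of 0.08. Kinases that MAP kinases activate had a median of 0.02 over 9 members, which turned to between -0.16 and -0.03 under the 3 other scalings. They ran from Mknk2 (-0.36), Mapkapk3 (-0.28) and Rps6ka2 (-0.11) to Rps6ka5 (0.06, or -0.12 with median centring), Mapkapk5 (0.22) and Mknk1 (0.59). Relative to array a these stood, in the same order, at 0.42, -0.27, -0.22, 0.68, 0.56 and 0.06. Mknk1 and Mknk2, which both act on a translation initiation factor, therefore stood on opposite sides of array b. Mknk1 read 1986 on the 7-day array, 1314 on array b and 1908 on array a, and Mknk2 read 3095 at 7 days, 3977 on array b and 2302 on array a.

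Early response genes, transcripts that ERK signalling induces within minutes, had 15 kept members with a median of -0.12. Of these 5 were at least 1.25-fold lower than array b and 2 higher, against 13.7% and 12.3% of all genes. Egr1, a zinc finger transcription factor gene, read 34849 on the 7-day array, 45832 on array b and 74760 on array a, and so was lower than both 1-day arrays, though not than array a with median centring. The lowest were Ier2 (-0.62), Fosl1 (-0.58) and Fosb (-0.56), and the highest Plk3 (0.76), Fosl2 (0.56) and Plk2 (0.15, or -0.03 with median centring). In this list 7 members were below both 1-day arrays and 4 above both, against 22.9% and 27.4% of all genes. With median centring these counts were 2 and 1. Relative to array a the median was -0.38, or 0.12 with quantile normalisation and 0.83 with median centring. Feedback genes had 0.40 there, and the difference between the lists was not tested.

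JAK and STAT genes, the targets of Socs proteins and their partners, had a median of -0.14 over 13 members, with 3 at least 1.25-fold lower and 3 higher, against 13.7% and 12.3% of all genes. Jak3, a kinase of lymphocyte cytokine receptors, read 601 on the 7-day array, 1314 on array b and 2508 on array a, the lowest of the list (-1.11 and -2.03). Il6st, the shared receptor chain of interleukin 6 type cytokines, and Jak1, which it activates, followed at -0.36 and -0.35 relative to array b, and at 0.97 and 1.83 relative to array a. The highest relative to array b were Pias1, an inhibitor of STAT proteins, at 0.69, Tyk2 at 0.44 and Stat6 at 0.41. Relative to array a they stood at 1.14, 2.89 and -1.32. Cish, a Socs relative induced through STAT5, read 9693 at 7 days, 10694 on array b and 4298 on array a.

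**Figure D4:**
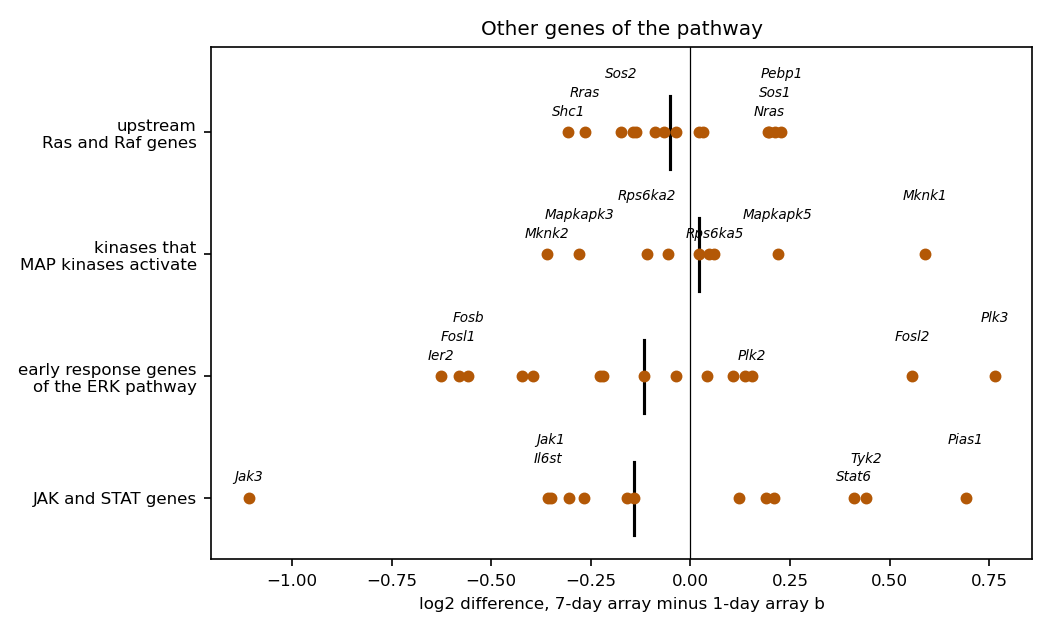
Log2 difference of the 7-day array minus 1-day array b for the kept genes of 4 pathway lists, with 1 point per gene, a black bar at each list's median (-0.05, 0.02, -0.12 and -0.14 from top to bottom) and the 3 highest and 3 lowest genes named. The median of 0.02 for kinases that MAP kinases activate turned to -0.16 with median centring, -0.03 with quantile normalisation and -0.03 with the loess trend removed.

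Markers of other cells differed between the same arrays. Of 7 white blood cell markers, 6 were lower on the 7-day array than on array b (5 with quantile normalisation). At least 1.25-fold lower were 5 of them. Ptprc went the other way, at 996 on the 7-day array, 440 on array b and 1686 on array a (1.15 and -0.75). The summed intensity of all 7 was 14583 on the 7-day array, 19806 on array b and 12409.5 on array a. Of 4 fibroblast markers, 4 were lower than array b, with sums of 119511 on the 7-day array, 131129 on array b and 33357 on array a. Of 6 adrenal cortex markers, 6 were higher than array b, with sums of 941988 on the 7-day array, 717602.5 on array b and 1432421 on array a. Chromaffin cell markers were 3 lower and 5 higher, or 5 lower and 1 higher with quantile normalisation, and summed to 1149326 on the 7-day array, 978345 on array b and 2357634 on array a. None of these markers was at 0 on any array. Their part in the lower Spry2, Dusp1 and Jak3 values was not tested, and in bulk tissue fewer cells of a type and less RNA per cell cannot be told apart.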

How the data were processed

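The deposited table gives 1 linear intensity per probe set and array, and its near-equal array averages show that the authors had scaled it. Their software is not given in the sources used here. Means without the outer 2% were 2501.03 on the 7-day array, 2500.99 on 1-day array b and 2500.66 on 1-day array a, so differences in total RNA are hidden. Groups came from the titles, which, per the labels, put "Multiple Organs" before the tissue without explaining it. Of 31099 probe sets, 57 controls were left out. Values were turned into log2(intensity + 16), and the 15521 probe sets at or above the median of the mean of the 7-day array and 1-day array b (log2 9.30) were kept. Symbols came from the platform annotation and were updated through Entrez identifiers to the RefSeq table of GRCr8. Limma 3.58.1 in R 4.3.3 (lmFit, eBayes with an intensity trend, two-sided, Benjamini-Hochberg at 0.05) was fitted to all 3 arrays. The fit had 1 residual degree of freedom, and its spread for the single 7-day array was borrowed from the 1-day pair. Limma was also run on simulated data, but no measure of its power at the spread of these arrays was taken from that run. The 0 calls therefore do not show that differences were absent. Limma SEs are those of the intensity trend, not of a gene's own replicates, and ran from 0.92 to 2.23 for the 48 kept members. Members and lists were chosen with earlier results of these data known. Every kept feedback and kinase gene was named, and the 3 highest and 3 lowest of each pathway list. Egr1, Cish, the marker genes named, the genes named after a kinase and most members below the filter, and the promoters printed, were chosen after their values were seen. Alternatives were pseudocounts of 1 and 64, quantile normalisation, median centring, removal of a loess trend (span 0.5, against 1-day array b only), other filters, the mean of a gene's probe sets, other limma settings and leaving out each 1-day array. Figures used Python 3.11.15 with matplotlib 3.10.9.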

Additional observations from a re-analysis of the deposited data

How the results depend on the processing

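Limma called 0 probe sets in the main setting and under each of its 9 alternatives, with 2 to 78 at an unadjusted p under 0.05. It has no residual degree of freedom without a 1-day array, so it gave no value there. The kinase median relative to 1-day array b (0.06) was -0.12 with median centring, 0.0874 with quantile normalisation, 0.0952 with the loess trend removed, 0.0924 with no filter, 0.0311 with the 75th percentile filter and 0.0251 when probe sets were averaged. The feedback median relative to array b (-0.08) stayed negative under each alternative run, but was -0.0294 with quantile normalisation and -0.0263 with the loess trend removed. Against the mean of both 1-day arrays, the feedback median (0.11) was 0.62 with median centring, 0.3497 with quantile normalisation, 0.2956 with the 75th percentile filter, 0.0334 with no filter and -0.0487 when probe sets were averaged, and -0.0752 (without array a) to 0.3951 (without array b) leaving out each 1-day array. The kinase median (0.06) was 0.14 with quantile normalisation, 0.58 with median centring, 0.0864 with the 75th percentile filter, -0.0561 when probe sets were averaged, and 0.0367 to 0.0633 leaving out each 1-day array. The cause of these changes was not tested. Members at least 1.5-fold from array b numbered 2, against 8 with median centring, 16 with no filter, 1 with the 75th percentile filter and 5 when probe sets were averaged. Feedback genes at least 1.25-fold lower numbered 3 of 11 and kinase genes 1 of 16 with the 75th percentile filter. Of 288 gene values recomputed for 48 members, 22 moved by more than the spread of the 1-day pair, and neither member past 1.5-fold changed sign. A change of sign under another scaling was seen for 12 of 48 members, 10 of them with median centring. No paired analysis was possible because the groups share only 1 replicate letter.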

Other observations

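Further probe sets of the members were compared on the 7-day array and 1-day array b. For the 14 members with a second kept probe set, 15 of 18 further probe sets had the same sign as the one chosen. The exceptions were 1 each of Dusp6, Map3k3 and Mapk8. The third of these read 1055 on the 7-day array, 1583 on array b and 1642 on array a (-0.58 relative to array b), opposed to the chosen Mapk8 probe set (0.07). Another probe set, annotated to both Mapk8 and Mapk10, a JNK gene of neurons, read 722 at 7 days, 940 on array b and 2003 on array a. Signs relative to array a agreed less often. Opposed to the chosen probe set there were the further kept ones of Dusp3 (-0.99), Dusp18 (-1.74), Dusp6 (-0.76 and -1.98), Socs5 (-0.20) and Socs7 (-0.12). So were those of Mapk1ip1l and Mapk8ip1, and 1 of Map3k3. Those of Dusp1, Map3k1, Map4k2, Map4k3, Map4k4 and Mapk8 kept the sign. Where signs differed, positions relative to array a rest on the probe set chosen.

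Several members that were dim on the 7-day array and array b read far higher on array a. The median of all probe sets was also higher there, at 1583, against 675 on the 7-day array and 593 on array b. These members had failed a filter that did not use array a. Mapk15 read 76 on the 7-day array, 16 on array b and 1968 on array a. Dusp26, a phosphatase gene of neural and endocrine tissue, read 253 at 7 days, 442 on array b and 4251 on array a. Dusp12 read 361 at 7 days, 354 on array b and 2595 on array a, and Map4k1, a kinase gene of blood cells, read 526 at 7 days, 215 on array b and 2293 on array a.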
